A study of Arabidopsis thaliana with 12 samples.

Results

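The effect of losing FRUITFULL (FUL) on each transcript was compared between pistils and inflorescence meristems of Arabidopsis thaliana. The measure was the log2 fold change of ful-1 over Ler pistils minus that of ful-7 over Col-0 meristems, called the difference here. A negative difference means that the fold change was lower in pistils than in meristems, and a positive one that it was higher. The description covers genes whose mean reached 1 CPM (a count relative to the scaled size of its library) in both wild types. These were 18378 of the 36917 genes in the count table, or 49.8%.

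The first mutant, ful-1, is in the Landsberg erecta (Ler) background, and its pistils, with young siliques, taken at floral stages 12 to 16 were set against those of wild-type Ler. The second, the T-DNA line ful-7 (SALK_033647), is in Columbia (Col-0), and its dissected inflorescence meristems, with flower buds up to stages 3 to 4, were set against those of wild-type Col-0. Each of the 4 groups had 3 libraries of RNA from about 20 pooled organs of plants grown at 21 °C with 16 h of light and 8 h of dark. Each tissue came from a single ecotype and a single mutant allele, so tissue, ecotype and allele cannot be told apart in the difference. In tissue RNA, fewer cells of a type and less RNA per cell cannot be told apart either.

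FUL encodes a MADS-domain transcription factor. Such factors bind DNA as dimers or larger complexes at CArG boxes, short AT-rich sites. In the fruit FUL is needed for growth of the valves, the walls of the pod, and keeps valve margin genes out of them. In the inflorescence meristem it acts with related factors in the change to flowering.

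The libraries held 13191949 to 83606724 counts, and the lowest total was that of the third ful PI column of the table, a ful-1 pistil library. Spearman's rho between it and each other pistil library was 0.905 to 0.911 across genes, where the highest value within the tissue was 0.987, as a description without a test. The share of plastid genes was 2.04% of this library and 0.118% to 0.394% of the remaining 5. Its median absolute log2 deviation from its 2 group mates over the 18378 genes was 0.93, while the mates differed from each other by 0.11. Counts of called genes, and differences printed with an SE, are therefore given both with all 12 libraries and with the 11 that remain without this column. Differences printed without an SE are over 11 libraries unless 12 are named. The 8 inflorescence meristem markers summed to 23.4 to 31.3 CPM in pistils and to 263 to 333 CPM in meristems. The 8 carpel and fruit markers summed to 19.4 to 42.7 CPM in meristems. In pistils these fruit markers summed to 778, 815 and 385 CPM in ful-1, against 314, 355 and 317 CPM in Ler. The labelled tissues thus matched their markers. The 9 ovule and seed coat markers summed to 439, 437 and 193 CPM in ful-1 pistils, against 182, 237 and 210 CPM in Ler pistils. The 10 tapetum and pollen markers summed to 501 to 706 CPM in ful-1 and 456 to 1389 CPM in Ler pistils. The part of these cell types in the results was not tested.

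FUL itself was low in every mutant library. It had 8.87, 9.76 and 2.58 CPM in ful-1 pistils, against 104, 107 and 96.2 CPM in Ler pistils, and 2.44, 1.71 and 3.29 CPM in ful-7 meristems, against 95.3, 107 and 153 CPM in Col-0 meristems. No mutant library reached a wild-type library. The log2 fold change was -3.50 ± 0.27 (SE) in pistils and -5.55 ± 0.25 in meristems over 11 libraries. The difference was 2.06 ± 0.32, and its p in the quasi-likelihood test of edgeR, adjusted by Benjamini-Hochberg, was 0.00303. Over 12 libraries it was 1.75 ± 0.56, which did not pass (adjusted p of 0.235). FUL counts were above 0 in every mutant library. The CPM of the ful-1 and ful-7 libraries overlapped through the third ful PI column (2.58 CPM) alone, and the remaining ful-1 libraries lay above every ful-7 library.

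The difference passed the test for 145 of the 18378 genes over 12 libraries (adjusted p under 0.05, 0.789% of those described), and these are called differences. The difference was positive for 32 of them (0.174%) and negative for 113 (0.615%), and 2344 genes had an unadjusted p under 0.05. Without the third ful PI column 2369 genes passed (12.9%), 716 with a positive difference (3.9%) and 1653 with a negative one (8.99%), and all 145 were among them with the same sign. Leaving out any other single library gave 4 to 23 positive and 35 to 92 negative calls. Over 11 libraries the ful-1 pistil group has 2 libraries. The biological coefficient of variation was 0.324 with the column and 0.172 without it. The 145 had differences of 1.1 to 4.80 where positive and of -8.56 to -0.93 where negative, and the median over all described genes was 0.00.

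The called differences lay mostly on the pistil side. Of the 145, 134 had a larger absolute effect in pistils than in meristems, as 72.1% of all described genes did. Over 11 libraries this held for 2034 of the 2369 called genes and for 60% of all described genes. In a test of each tissue alone, 105 of the 113 were lower in ful-1 pistils and did not pass in meristems, and 27 of the 32 were higher in ful-1 pistils and did not pass in meristems. Over 11 libraries these classes held 1310 of the 1653 negative and 452 of the 716 positive calls. A further 298 negative and 231 positive calls passed in neither tissue alone. Over 12 libraries 548 described genes passed that test in pistils (2.98%), 136 higher (0.74%) and 412 lower (2.24%) in ful-1, and 11 passed in meristems (0.0599%), 3 higher (0.0163%) and 8 lower (0.0435%) in ful-7. Over 11 libraries 2710 passed in pistils (14.7%), 831 higher (4.52%) and 1879 lower (10.2%), and 107 in meristems (0.582%), 59 higher (0.321%) and 48 lower (0.261%). All 4 groups were in 1 fit, so which genes passed in meristems also depended on the third ful PI column, a pistil library. All 32 and 110 of the 113 had no overlap between their ful-1 and Ler libraries, which held for 27.1% of all described genes in either direction. Between ful-7 and Col-0 libraries 84 of the 145 had no overlap, against 23.7% of all described genes. The effects had opposite signs in the tissues for 120 of the 145, and for 49.2% of all described genes. The 145 and the 2369 were chosen by the gap between these same effects, so these counts only describe them. Nothing is read from their distance to the shares of all described genes. Across the 18378 genes the effects in the 2 tissues correlated with a Pearson's r of 0.06 over 12 libraries and 0.01 over 11, a description across genes that are not independent replicates.

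**Figure D1:**
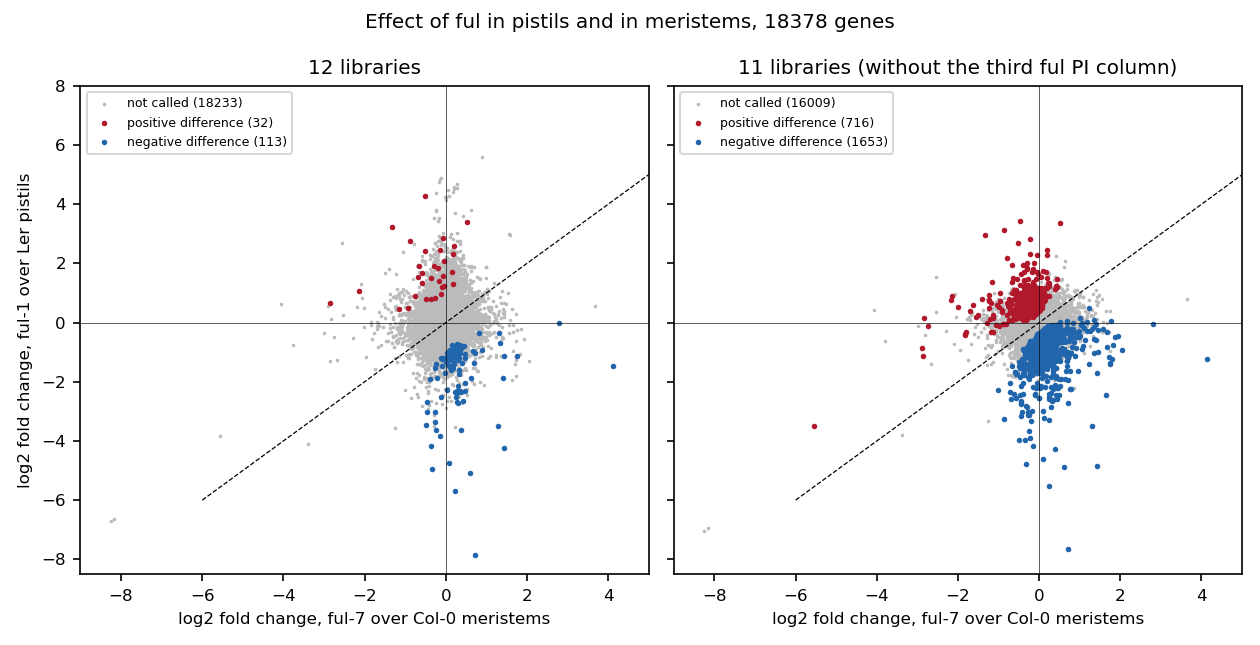
Log2 fold change of ful-1 over Ler pistils (vertical axis) against that of ful-7 over Col-0 meristems (horizontal axis) for the 18378 genes, with 12 libraries on the left and 11 on the right. Red and blue points are genes with a called positive or negative difference, grey points the rest, and the dashed line marks equal effects. Called genes spread mainly along the pistil axis and number 145 on the left and 2369 on the right.

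Of the 8 largest negative differences, 7 were in genes that passed as lower in ful-1 pistils. AT1G04660, annotated as a glycine-rich protein, had 0.188, 0.0986 and 0 CPM in ful-1 pistils, against 31.6, 43.0 and 15.1 CPM in Ler pistils. In meristems it had 10.4, 9.29 and 8.81 CPM in ful-7 meristems, against 7.28, 4.97 and 5.10 CPM in Col-0 meristems. It was lower in every ful-1 library and higher in every ful-7 library than in the wild types. The difference was -8.56 ± 0.67 over 12 libraries and -8.37 ± 0.66 over 11 (SE; adjusted p of 0.000299 and 9.1e-05).

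SHN2, an AP2-type factor of the family that controls cuticle formation, had 3 counts in all ful-1 pistil libraries and 195 in all Ler ones. That is a ratio of 0.0189 per total count (95% exact interval 0.00386 to 0.0559, counting error only). In meristems it had 1.41, 1.14 and 1.68 CPM in ful-7 meristems, against 1.5, 1.19 and 0.946 CPM in Col-0 meristems, groups that overlapped. The fitted difference was -5.90 ± 0.57 over 12 libraries and -5.76 ± 0.51 over 11 (SE; adjusted p of 0.000952 and 0.00013), a size that depends on the prior count of the fit. AT1G33930, annotated as an AIG1 family protein, likewise had 3 counts in ful-1 and 116 in Ler pistils, a ratio of 0.0317 (0.00644 to 0.0950). Its meristem libraries overlapped, and its fitted difference was -4.63 ± 0.85 over 12 libraries and -4.47 ± 0.81 over 11 (SE; adjusted p of 0.0345 and 0.00646).

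CORI3, a cystine lyase induced by jasmonate, had 0.962, 1.71 and 0.412 CPM in ful-1 pistils, against 50.02, 41.6 and 21.4 CPM in Ler pistils. It was at 8.00, 7.69 and 7.77 CPM in ful-7 meristems, against 5.33, 5.41 and 4.71 CPM in Col-0 meristems. Pistil values were lower in every ful-1 library and meristem values higher in every ful-7 library. The difference was -5.69 ± 0.55 over 12 libraries and -5.50 ± 0.46 over 11 (SE; adjusted p of 0.000952 and 9.1e-05). PKS2, a phytochrome kinase substrate of light signalling, had 1.01, 0.460 and 0.412 CPM in ful-1 pistils, against 18, 19.99 and 16.6 CPM in Ler pistils. Its meristem libraries overlapped, with means of 6.45 ± 0.554 CPM in ful-7 and 6.06 ± 0.459 CPM in Col-0 meristems (SD, n = 3 each). The difference was -4.84 ± 0.39 over 12 libraries and -4.72 ± 0.30 over 11 (SE; adjusted p of 0.00037 and 3.21e-05) and the log2 fold change in pistils over 12 libraries -4.75.

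GA2OX1 and PRE1 were each the only call of their list over 12 libraries. GA2OX1, which inactivates gibberellins, had 0.188, 0.131 and 0.412 CPM in ful-1 pistils, against 2.87, 2.98 and 2.85 CPM in Ler pistils. Meristem levels overlapped between genotypes, at 20.2 ± 1.41 CPM in ful-7 and 22.5 ± 2.50 CPM in Col-0 meristems (SD, n = 3 each). Its difference was -3.67 ± 0.36 over 12 libraries and -4.02 ± 0.24 over 11 (SE; adjusted p of 0.000952 and 1.87e-05). PRE1, a helix-loop-helix protein that promotes cell elongation, had 3.57, 5.62 and 3.40 CPM in ful-1 pistils, against 27.9, 34.4 and 21.5 CPM in Ler pistils. No ful-1 library reached a Ler library. In meristems PRE1 averaged 5.66 ± 0.486 CPM in ful-7 and 4.58 ± 0.716 CPM in Col-0 meristems (SD, n = 3 each), and the difference was -3.03 ± 0.35 over 12 libraries and -2.96 ± 0.32 over 11 (SE; adjusted p of 0.00331 and 0.000357).

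**Figure D2:**
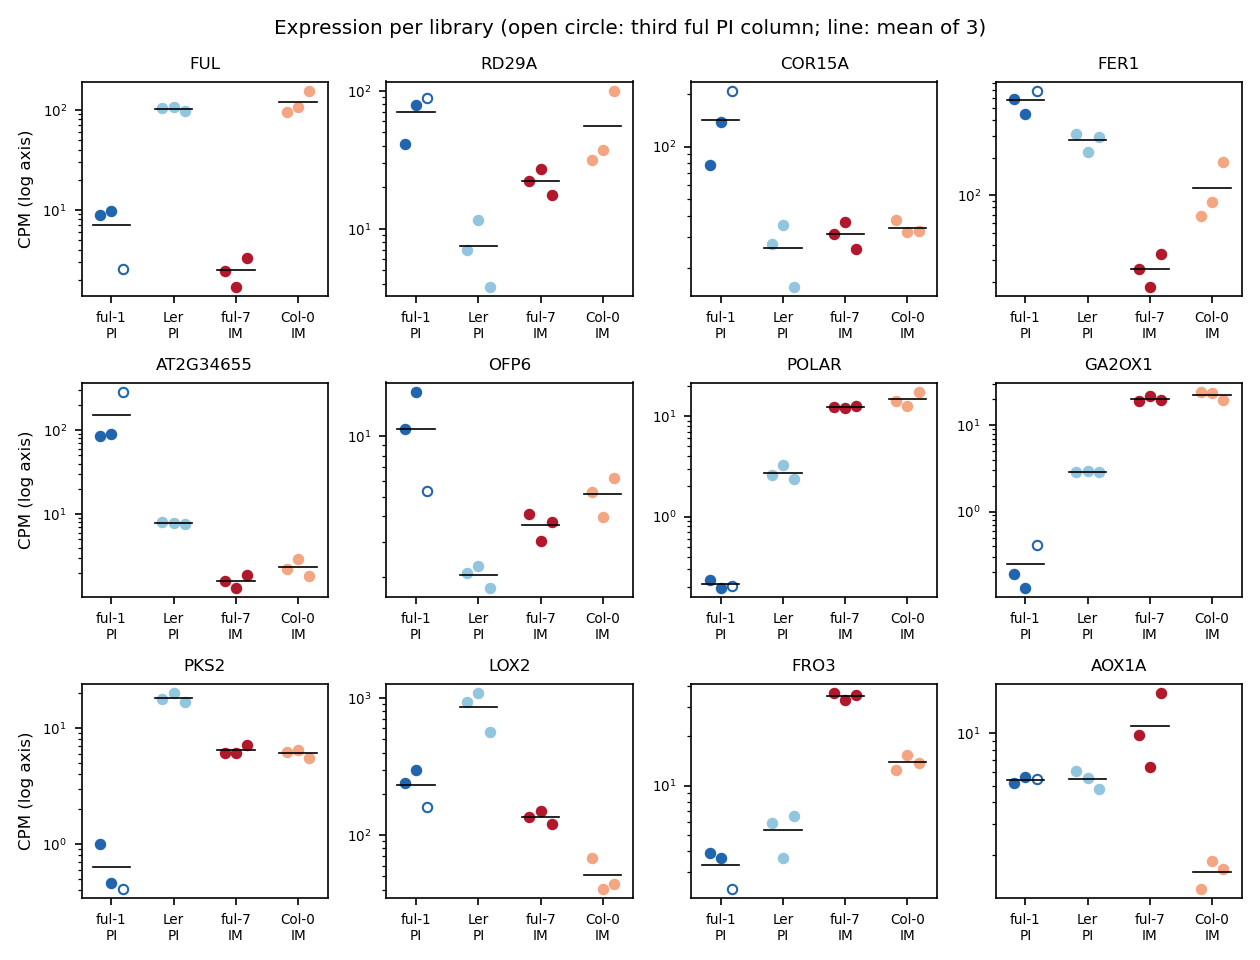
CPM on a log axis for 12 genes in each library of ful-1 pistils (PI), Ler pistils, ful-7 meristems (IM) and Col-0 meristems, with the mean of 3 as a line and the third ful PI column as an open circle. FUL is low in both mutants, POLAR, GA2OX1 and PKS2 are lowest in ful-1 pistils, and FER1 and AOX1A separate mainly in meristems.

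Among stomatal genes, the negative differences were those of genes lower in ful-1 pistils. Of 19 described genes of the stomatal list, 0 had a positive and 2 a negative called difference over 12 libraries, and 2 and 10 over 11. That is 10.5% and 63.2% called, against 0.789% and 12.9% of all described genes. The list's median difference was -0.40 over 12 libraries and -0.80 over 11, against 0.00 for all described genes in each. Its median effect was -0.63 in pistils and -0.27 in meristems over 12 libraries, and -1.08 and -0.27 over 11. POLAR, which marks the polar side of dividing stomatal precursors, had 0.235, 0.197 and 0.206 CPM in ful-1 pistils, against 2.61, 3.22 and 2.37 CPM in Ler pistils. FAMA, the factor for guard cell fate, had 1.43, 1.48 and 1.55 CPM in ful-1 pistils, against 9.86, 10.4 and 8.15 CPM in Ler pistils. No ful-1 library reached a Ler library for either gene. In meristems POLAR averaged 12.3 ± 0.314 CPM in ful-7 and 14.6 ± 2.36 CPM in Col-0 meristems and FAMA 8.69 ± 1.21 CPM in ful-7 and 12.0 ± 1.16 CPM in Col-0 meristems (SD, n = 3 each). Each ful-7 library was below each Col-0 library for both genes, meristem effects that did not pass over 12 or 11 libraries. The difference of POLAR was -3.40 ± 0.30 over 12 libraries and -3.42 ± 0.30 over 11 (SE; adjusted p of 0.000746 and 0.000125). That of FAMA was -2.21 ± 0.26 over 12 libraries and -2.28 ± 0.23 over 11 (SE; adjusted p of 0.00332 and 0.000231). POLAR shares 20.2% of its exonic length with AT4G31810 on the opposite strand.

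Over 11 libraries the lineage-initiating factor SPCH, its partner SCRM2, the receptor-like protein TMM and the secreted peptides EPF2 and EPFL9 joined them. The differences of these 5 ran from -2.55 (SPCH) to -0.80 (SCRM2). SPCH averaged 0.873 CPM in the other 2 ful-1 libraries and 6.22 CPM in Ler pistils. The polarity protein BASL (-1.79), the protease SDD1 (-2.14) and the myrosinase TGG1 (-2.76), a defence enzyme of guard cells, also passed. The positive calls of the list were KAT1, a guard cell potassium channel, and OST1, a kinase of guard cell closure. KAT1 averaged 22.2 ± 13.3 CPM in ful-1 pistils and 5.57 ± 1.67 CPM in Ler pistils, and 1.21 ± 0.322 CPM in ful-7 and 1.40 ± 0.178 CPM in Col-0 meristems (SD, n = 3 each). The difference of KAT1 was 2.23 ± 0.59 over 12 libraries and 2.55 ± 0.41 over 11 (SE; adjusted p of 0.138 and 0.00357). That of OST1 was 1.96 ± 0.44 over 12 libraries and 1.72 ± 0.42 over 11 (SE; adjusted p of 0.0766 and 0.0272). TGG2, a second myrosinase named after its values were seen, had 3.92, 3.25 and 1.34 CPM in ful-1 pistils, against 32.4, 34.4 and 24.8 CPM in Ler pistils, and a difference of -3.10 ± 0.43 over 12 libraries and -2.86 ± 0.20 over 11 (SE; adjusted p of 0.00863 and 6.65e-05).

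Photosynthesis genes had negative differences throughout the list over 11 libraries, and 1 passed over 12. Of 21 described genes, 0 were positive and 10 negative calls over 11 libraries, and 0 and 1 over 12, and all 21 had a difference below 0 over 11. The share called was 4.76% over 12 libraries and 47.6% over 11, against 0.789% and 12.9% of all described genes. The median was -0.52 over 12 libraries and -0.79 over 11. RBCS3B, a small subunit gene of Rubisco, had 613, 729 and 594 CPM in ful-1 pistils, against 1551, 1711 and 1602 CPM in Ler pistils. Its meristem levels overlapped between genotypes, at 1413, 1431 and 1193 CPM in ful-7 meristems, against 1357, 1248 and 1414 CPM in Col-0 meristems. The difference was -1.34 ± 0.24 over 12 libraries and -1.32 ± 0.17 over 11 (SE; adjusted p of 0.0308 and 0.000937). Of the others called over 11 libraries, the 3 further small subunit genes RBCS1A, RBCS1B and RBCS2B had -1.01, -1.12 and -1.25, and Rubisco activase (RCA) -0.79. The enzymes GAPB, SBPASE and PRK of carbon fixation had -0.93, -0.80 and -0.60. The antenna gene LHCA2 had -0.77 over 11 libraries and 0.13 over 12, where it did not pass (adjusted p of 0.963). Of 11 described greening regulators and chlorophyll synthesis genes, 0 were positive and 3 negative calls over 11 libraries (PKS2, the GATA factor GNC and the protochlorophyllide reductase PORC), and PKS2 alone over 12 (27.3% and 9.09% called). GNC averaged 1.47 CPM in the other 2 ful-1 libraries and 7.52 CPM in Ler pistils, with a difference of -2.66 ± 0.74 over 12 libraries and -2.30 ± 0.24 over 11 (SE; adjusted p of 0.164 and 0.000249). The list's median was -0.68 over 12 libraries and -0.63 over 11.

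Genes with the word chloroplast, plastid or thylakoid in their annotation, called plastid-annotated here, made up a large share of the negative calls. The grouping was chosen after the values were seen and is given without a test. The words were matched in free text, so the group can hold genes of other compartments and miss plastid ones. Ribosomal proteins among them were matched by name in the first part of that text only, so that group can miss members. Among protein-coding genes, 51 of the 109 negative calls over 12 libraries (46.8%) and 3 of the 32 positive ones (9.38%) had the word chloroplast, plastid or thylakoid in their annotation, against 2499 of 17284 described genes (14.5%). Over 11 libraries the shares were 45.0% of 1578 and 8.66% of 681. CPN60A, a subunit of the chaperonin that folds Rubisco, had 232, 267 and 241 CPM in ful-1 pistils, against 674, 724 and 747 CPM in Ler pistils. CPN60B, another subunit, had 335, 384 and 438 CPM in ful-1 pistils, against 858, 854 and 879 CPM in Ler pistils. All ful-1 libraries were below all Ler libraries for both. The difference of CPN60A was -1.73 ± 0.20 over 12 libraries and -1.76 ± 0.13 over 11 (SE; adjusted p of 0.00298 and 7.43e-05). That of CPN60B was -1.34 ± 0.21 over 12 libraries and -1.48 ± 0.12 over 11 (SE; adjusted p of 0.0192 and 9.1e-05). PTAC12, of the plastid transcription complex, had 48.1, 50.5 and 51.3 CPM in ful-1 pistils, against 117, 119 and 111 CPM in Ler pistils, and a difference of -1.37 ± 0.19 over 12 libraries and -1.44 ± 0.13 over 11 (SE; adjusted p of 0.00818 and 0.000161). SCO1, a plastid elongation factor, had a difference of -1.11 over 12 libraries and -1.15 over 11. PRPL11, a plastid ribosomal protein, had one of -1.23 over 12 libraries and -1.27 over 11. Of 69 plastid-annotated ribosomal proteins, 5 were negative calls over 12 libraries and 43 over 11, with 0 positive in each. The negative calls were 7.25% and 62.3% of the 69, against 0.615% and 8.99% of all described genes. Their median difference was -0.34 and -0.72. Over 11 libraries the median effect was -0.45 in pistils and 0.14 in meristems, medians that need not subtract to the median difference. The third ful PI column, with the highest share of plastid counts, is in the 12-library values.

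**Figure D3:**
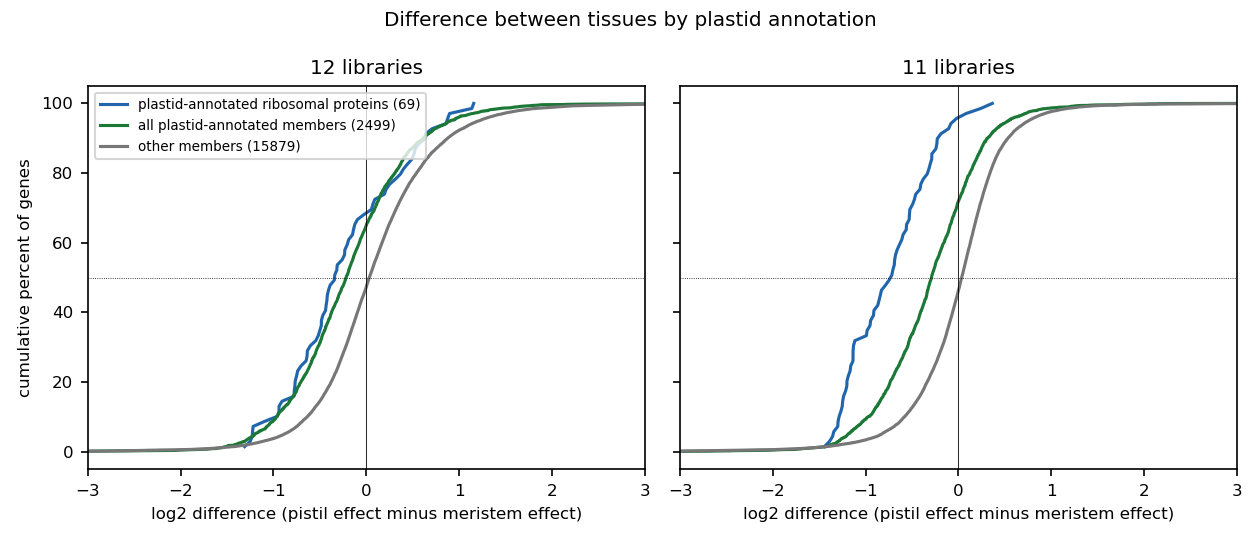
Cumulative percent of genes by their difference (log2, pistil effect minus meristem effect) for 69 plastid-annotated ribosomal proteins, 2499 plastid-annotated genes and the 15879 other described genes, with 12 libraries on the left and 11 on the right. Plastid-annotated means that the annotation text holds the word chloroplast, plastid or thylakoid. Ribosomal proteins are those named so in the first part of that text. The ribosomal protein curve crosses 50% at -0.34 on the left and -0.72 on the right.

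The 250 bases before the annotated start of each gene were searched on both strands for a CArG box, as these are the sites MADS-domain factors bind, and for the G-box CACGTG. A CArG box lay in this window for 4 of 109 protein-coding negative calls over 12 libraries (3.67%) and for 0 of 32 positive ones. Over 11 libraries it did so for 55 of 1578 negative calls (3.49%) and 15 of 681 positive ones (2.2%). Among all described protein-coding genes it did so for 473 of 17284 (2.74%), and for 692 of 27444 protein-coding genes in the annotation (2.52%). The G-box was found for 14 of the 109 (12.8%) and 2 of the 32 (6.25%), against 7.41% of described genes and 6.49% of protein-coding genes. Over 11 libraries it was found for 100 of the 1578 (6.34%) and 51 of the 681 (7.49%), so the higher share among negative calls was not seen over 11. The 4 negative calls with a CArG box over 12 libraries were AT3G55710 and the 3 whose windows hold no annotated exon, shown here from the RefSeq sequence of TAIR10.1, 5′ to 3′ on the strand of the gene, with the CArG box in capitals. GS2, the plastid glutamine synthetase, has its window at chr5:13830179-13830428 on the plus strand, ORG1 (OBP3-responsive protein 1) at chr5:21688513-21688762 on the plus strand, and AT4G39040, an RNA-binding protein with a CRM domain, at chr4:18190609-18190858 on the minus strand.
GS2: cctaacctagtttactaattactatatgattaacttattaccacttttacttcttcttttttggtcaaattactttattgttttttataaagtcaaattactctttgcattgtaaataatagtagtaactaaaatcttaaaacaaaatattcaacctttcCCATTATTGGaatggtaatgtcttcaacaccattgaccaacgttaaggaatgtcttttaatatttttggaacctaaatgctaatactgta
ORG1: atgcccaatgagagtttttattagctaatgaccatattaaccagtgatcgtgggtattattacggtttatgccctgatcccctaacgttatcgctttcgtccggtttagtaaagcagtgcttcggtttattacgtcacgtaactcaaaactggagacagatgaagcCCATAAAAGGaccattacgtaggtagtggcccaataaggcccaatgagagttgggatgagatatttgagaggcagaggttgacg
AT4G39040: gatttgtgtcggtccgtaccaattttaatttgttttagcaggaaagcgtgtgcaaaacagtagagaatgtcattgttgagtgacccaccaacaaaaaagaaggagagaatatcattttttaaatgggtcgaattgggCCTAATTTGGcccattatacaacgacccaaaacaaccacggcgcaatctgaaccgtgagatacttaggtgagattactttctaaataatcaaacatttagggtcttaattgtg
The box began 90 bases before the start of GS2, 84 before that of ORG1 and 113 before that of AT4G39040. GS2 had 282, 311 and 319.6 CPM in ful-1 pistils, against 585, 586 and 597 CPM in Ler pistils, and 511, 528 and 488 CPM in ful-7 meristems, against 437, 437 and 498 CPM in Col-0 meristems. Every ful-1 library was below every Ler library, while the meristem libraries overlapped, and the difference was -1.11 ± 0.20 over 12 libraries and -1.19 ± 0.13 over 11 (SE; adjusted p of 0.0334 and 0.0004). ORG1 overlapped in pistils and was higher in every ful-7 than in every Col-0 library, with 89.9, 95.1 and 68.5 CPM in ful-7 meristems, against 33.5, 32.8 and 36.2 CPM in Col-0 meristems. Its difference was -1.67 ± 0.30 over 12 libraries and -1.51 ± 0.19 over 11 (SE; adjusted p of 0.032 and 0.000783). That of AT4G39040 was -1.29 ± 0.18 over 12 libraries and -1.27 ± 0.10 over 11 (SE; adjusted p of 0.0095 and 9.1e-05). A match is a string in the sequence and no evidence of binding.

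Of the 8 largest positive differences, 6 were in genes that passed as higher in ful-1 pistils. AT2G34655, an uncharacterized protein, had 84.6, 89.5 and 282 CPM in ful-1 pistils, against 7.99, 7.74 and 7.56 CPM in Ler pistils. Its meristem libraries did not separate, with means of 1.62 ± 0.284 CPM in ful-7 and 2.32 ± 0.530 CPM in Col-0 meristems (SD, n = 3 each). The difference was 4.80 ± 0.61 over 12 libraries and 3.93 ± 0.23 over 11 (SE; adjusted p of 0.00477 and 1.58e-05). The third ful PI column was the highest of the ful-1 libraries here. AT2G16990, a major facilitator family protein, had 81.2, 108 and 22.3 CPM in ful-1 pistils, against 10.7, 13.9 and 6.65 CPM in Ler pistils, where that column was the lowest and still above Ler. Its difference was 3.64 ± 0.67 over 12 libraries and 4.02 ± 0.36 over 11 (SE; adjusted p of 0.0341 and 0.000125). OFP6, an ovate family protein, had 10.8, 16.5 and 5.36 CPM in ful-1 pistils, against 2.09, 2.27 and 1.78 CPM in Ler pistils, and a difference of 2.93 ± 0.50 over 12 libraries and 3.20 ± 0.33 over 11 (SE; adjusted p of 0.0249 and 0.000278). AT1G16960, annotated with a ubiquitin domain, had a difference of 2.92 over 12 libraries and 2.35 over 11.

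Of the other positive calls, 3 are in pectin-related families. AT3G62820 was taken in by the size rule and the others were named after their values were seen. No list of cell wall genes was counted, so these genes stand for no group. AT3G62820, of the invertase and pectin methylesterase inhibitor family, had 125, 229 and 173 CPM in ful-1 pistils, against 16.6, 19.8 and 13.1 CPM in Ler pistils. It averaged 3.21 ± 0.763 CPM in ful-7 and 2.23 ± 0.163 CPM in Col-0 meristems (SD, n = 3 each), and its difference was 2.89 ± 0.37 over 12 libraries and 2.87 ± 0.37 over 11 (SE; adjusted p of 0.00477 and 0.000923). AT5G63180, of the pectate lyase family, had 42.6, 55.8 and 41.5 CPM in ful-1 pistils, against 9.99, 12.2 and 15.4 CPM in Ler pistils, with a difference of 2.56 ± 0.37 over 12 libraries and 2.60 ± 0.36 over 11 (SE; adjusted p of 0.0118 and 0.00155). AT3G61490, of the pectin lyase-like family, had a difference of 1.90 ± 0.33 over 12 libraries and 1.68 ± 0.29 over 11 (SE; adjusted p of 0.0288 and 0.00507). In each of the 3 genes every ful-1 pistil library was above every Ler library.

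Cold and dehydration genes had the highest median difference of the 20 lists over 12 and over 11 libraries. Of 10 described genes, 2 were positive and 0 negative calls over 12 libraries, and 4 and 0 over 11. That is 20% and 40% called, against 0.789% and 12.9% of all described genes (positive 0.174% and 3.9%). The median difference was 1.22 over 12 libraries and 1.2 over 11. RD29A, a hydrophilic protein induced by cold and drought, had 41.4, 78.9 and 88.8 CPM in ful-1 pistils, against 7.06, 11.5 and 3.81 CPM in Ler pistils. In meristems it had 22.2, 27.1 and 17.5 CPM in ful-7 meristems, against 31.3, 37.0 and 99.3 CPM in Col-0 meristems. The groups did not overlap in either tissue, and the third Col-0 library was well above its mates. The difference was 4.55 ± 0.73 over 12 libraries and 4.3 ± 0.73 over 11 (SE; adjusted p of 0.0198 and 0.00452). COR15A, which protects chloroplast membranes in the cold, had 77.8, 139 and 208 CPM in ful-1 pistils, against 27.4, 35.2 and 15.6 CPM in Ler pistils. Its meristem libraries overlapped, and the difference was 2.57 ± 0.50 over 12 libraries and 2.15 ± 0.42 over 11 (SE; adjusted p of 0.0481 and 0.00932). KIN1 and KIN2, related small cold-induced proteins, passed over 11 libraries alone. The difference of KIN1 was 2.15 ± 0.73 over 12 libraries and 2.55 ± 0.48 over 11 (SE; adjusted p of 0.261 and 0.0081). That of KIN2 was 1.86 ± 0.44 over 12 libraries and 2.15 ± 0.20 over 11 (SE; adjusted p of 0.0948 and 0.000151). All 4 passed as higher in ful-1 pistils over 11 libraries, and none passed in meristems. KIN2 averaged 499 CPM in the other 2 ful-1 libraries and 172 CPM in Ler pistils, and 480.0 ± 17.9 CPM in ful-7 and 758 ± 49.9 CPM in Col-0 meristems (SD, n = 3 each).

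Iron homeostasis genes were called in both directions, and for each of those called over 11 libraries the absolute effect was larger in meristems. Of 11 described genes, 1 was a positive and 2 negative calls over 12 libraries (27.3% called, against 0.789% of all described genes), and 4 and 4 over 11 (72.7% called, against 12.9%). The positive ones were 3 genes for ferritin, the iron storage protein (FER1, FER3 and FER4), and the transporter gene YSL1. FER1 had 596, 452 and 682 CPM in ful-1 pistils, against 309.7, 224 and 290.3 CPM in Ler pistils, and 25.4, 18.5 and 33.5 CPM in ful-7 meristems, against 68.2, 87.4 and 186 CPM in Col-0 meristems. Libraries of the genotypes did not overlap in either tissue. The log2 fold change was 0.89 ± 0.37 in pistils and -2.14 ± 0.36 in meristems over 11 libraries, where the pistil effect did not pass and the meristem effect did. Its difference was 3.21 ± 0.52 over 12 libraries and 3.03 ± 0.51 over 11 (SE; adjusted p of 0.0199 and 0.0045). FER3, FER4 and YSL1 were each lower in ful-7 meristems, by log2 fold changes of -1.14, -1.81 and -2.17, with differences of 1.31, 1.48 and 2.94 over 11 libraries. YSL1 carries metals bound to nicotianamine.

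The negative iron calls were higher in ful-7 meristems. AT2G30766 had 54.3, 61.8 and 43.6 CPM in ful-7 meristems, against 5.21, 3.18 and 0.750 CPM in Col-0 meristems. Each ful-7 library was above each Col-0 library. In pistils it had 0.493, 0.526 and 0 CPM in ful-1 pistils, against 0.580, 1.95 and 0.931 CPM in Ler pistils, with lower values in ful-1. It shares 16.5% of its exonic length with AT2G30770 on the opposite strand. The difference was -5.60 ± 1.02 over 12 libraries and -5.37 ± 0.99 over 11 (SE; adjusted p of 0.0336 and 0.00705). FRO3, a ferric chelate reductase of mitochondria, had 36.4, 33.2 and 35.6 CPM in ful-7 meristems, against 12.4, 15.4 and 13.7 CPM in Col-0 meristems. The ful-7 libraries were all above the Col-0 ones, while the pistil libraries overlapped, with 3.90, 3.65 and 2.37 CPM in ful-1 pistils, against 5.93, 3.63 and 6.54 CPM in Ler pistils. Its difference was -2.01 ± 0.34 over 12 libraries and -1.90 ± 0.27 over 11 (SE; adjusted p of 0.0244 and 0.00181). BTS, an E3 ligase that limits the iron deficiency response, had 123, 128 and 127 CPM in ful-7 meristems, against 62.6, 69.5 and 70.9 CPM in Col-0 meristems, without overlap, and a difference of -1.46 ± 0.33 over 12 libraries and -1.24 ± 0.12 over 11 (SE; adjusted p of 0.083 and 0.000209). OPT3, a phloem iron transporter, averaged 199 ± 11.9 CPM in ful-7 and 77.9 ± 16.8 CPM in Col-0 meristems (SD, n = 3 each), with a difference of -1.18 ± 0.27 over 12 libraries and -1.26 ± 0.25 over 11 (SE; adjusted p of 0.088 and 0.0101). PYE, YSL3 and FER2, the remaining described genes, did not pass.

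**Figure D4:**
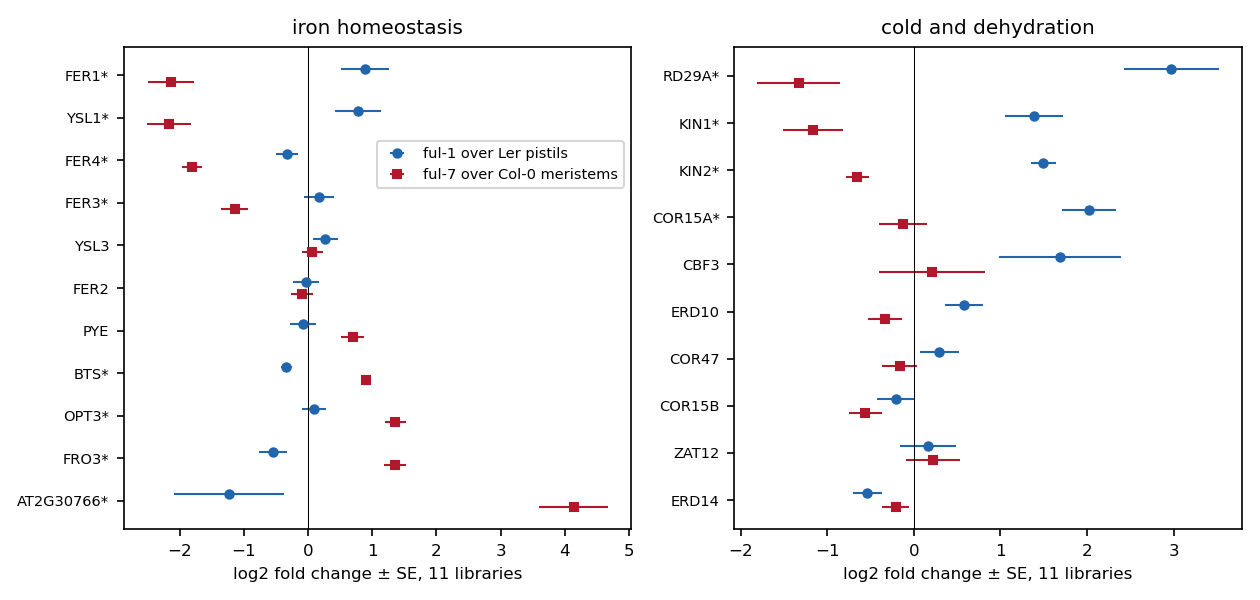
Log2 fold change ± SE of each described gene of the iron list (left) and the cold and dehydration list (right) in ful-1 over Ler pistils (circles) and ful-7 over Col-0 meristems (squares), over 11 libraries, with an asterisk for a called difference. FER1, FER3, FER4 and YSL1 lie below 0 in meristems, OPT3, FRO3, BTS and AT2G30766 above 0 there, and RD29A, KIN1, KIN2 and COR15A above 0 in pistils.

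Some genes were called in both tissues in opposite directions. AT3G56360, an uncharacterized protein, was the only such gene over 12 libraries, with 16.7, 14.8 and 10.2 CPM in ful-1 pistils, against 35.0, 29.5 and 27.9 CPM in Ler pistils. Its meristem values were 105, 118 and 92.8 CPM in ful-7 meristems, against 46.1, 41.4 and 29.4 CPM in Col-0 meristems. Neither pair of groups overlapped, and the difference was -2.58 ± 0.32 over 12 libraries and -2.45 ± 0.24 over 11 (SE; adjusted p of 0.00406 and 0.000209). Over 11 libraries there were 14, 13 of them lower in ful-1 pistils and higher in ful-7 meristems. LOX2, the lipoxygenase of jasmonate synthesis in plastids, was among them with 239.6, 297 and 161 CPM in ful-1 pistils, against 931, 1081 and 564 CPM in Ler pistils. In meristems it had 136, 149 and 121 CPM in ful-7 meristems, against 68.0, 40.8 and 43.9 CPM in Col-0 meristems. Its log2 fold changes were -1.72 ± 0.29 in pistils and 1.42 ± 0.25 in meristems, and the difference was -3.30 ± 0.44 over 12 libraries and -3.13 ± 0.38 over 11 (SE; adjusted p of 0.00636 and 0.000676).

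UGT74E2, a glycosyltransferase of an auxin precursor, had 1.97, 2.96 and 2.06 CPM in ful-1 pistils, against 26.4, 28.8 and 24.5 CPM in Ler pistils. It had 20.4, 15.8 and 26.0 CPM in ful-7 meristems, against 7.67, 6.81 and 10.8 CPM in Col-0 meristems, again without overlap, and a difference of -4.80 ± 0.36 over 12 libraries and -4.79 ± 0.37 over 11 (SE; adjusted p of 0.000292 and 7.47e-05). AT1G11850, an uncharacterized protein, had log2 fold changes of -4.83 ± 0.32 and 1.42 ± 0.25 over 11 libraries, and a difference of -5.66 ± 0.57 over 12 libraries and -6.25 ± 0.40 over 11 (SE; adjusted p of 0.00126 and 3.21e-05). DGAT3, a diacylglycerol acyltransferase, had 23.5, 22.2 and 31.7 CPM in ful-1 pistils, against 45.8, 54.3 and 49.8 CPM in Ler pistils, and 352, 362 and 352 CPM in ful-7 meristems, against 246, 233 and 189 CPM in Col-0 meristems. Its groups did not overlap in either tissue, and its difference was -1.63 ± 0.25 over 12 libraries and -1.85 ± 0.15 over 11 (SE; adjusted p of 0.0159 and 9.1e-05). AT1G15260, annotated as like an RNA helicase, had a difference of -1.77 ± 0.22 over 12 libraries and -1.83 ± 0.18 over 11 (SE; adjusted p of 0.00407 and 0.000207). BTS of the iron list, also in this class over 11 libraries, is described above.

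In 2 of the 145 the meristem effect alone passed over 12 libraries. AT3G49160, of the pyruvate kinase family, had 2.29, 1.23 and 3.45 CPM in ful-7 meristems, against 12.5, 16.3 and 21.7 CPM in Col-0 meristems. Its pistil libraries had 27.8, 28.4 and 61.9 CPM in ful-1 pistils, against 25.3, 22.4 and 26.3 CPM in Ler pistils, with the third ful PI column apart. The difference was 3.52 ± 0.57 over 12 libraries and 2.98 ± 0.43 over 11 (SE; adjusted p of 0.0199 and 0.00171). AOX1A, the alternative oxidase of mitochondria, named after its values were seen, had 9.76, 6.38 and 17.0 CPM in ful-7 meristems, against 1.28, 1.84 and 1.65 CPM in Col-0 meristems. Its pistil libraries overlapped, at 5.41 ± 0.205 CPM in ful-1 pistils and 5.46 ± 0.635 CPM in Ler pistils (SD, n = 3 each). Its difference was -2.81 ± 0.45 over 12 libraries and -2.87 ± 0.47 over 11 (SE; adjusted p of 0.0198 and 0.0037). Of genes called in both tissues in the same direction, 3 had a called difference over 11 libraries and 0 over 12. They were FUL, AT3G16650 (a WD40 repeat protein, -0.73) and the peroxidase gene PRXCB (-0.79).

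In the list of fruit patterning and dehiscence genes, SHP1, SPT and ALC had a called difference in edgeR over 11 libraries, each positive, and 0 of 14 were called over 12. The 3 of 14 are 21.4%, against 12.9% of all described genes, and with so few genes nothing is read about the list from this share. The list's median difference was 0.09 over 12 libraries and 0.33 over 11. SHP1, a MADS-box gene of the valve margin, had 232, 232 and 108 CPM in ful-1 pistils, against 82.8, 73.8 and 89.5 CPM in Ler pistils. Its meristem values were 8.53, 8.96 and 7.41 CPM in ful-7 meristems, against 10.3, 10.6 and 9.36 CPM in Col-0 meristems. All ful-1 libraries were above all Ler libraries, and the difference was 1.74 ± 0.14 over 11 libraries and 1.5 ± 0.36 over 12 (SE; adjusted p of 9.1e-05 and 0.0978). SPT and ALC, related bHLH factors of carpel margin and separation layer, passed over 11 libraries alone. The difference of SPT was 1.30 ± 0.37 over 12 libraries and 1.53 ± 0.21 over 11 (SE; adjusted p of 0.176 and 0.00128). That of ALC was 0.94 ± 0.47 over 12 libraries and 1.2 ± 0.33 over 11 (SE; adjusted p of 0.444 and 0.0462). SHP2, the close relative of SHP1, had log2 fold changes of 0.96 ± 0.25 in pistils and 0.92 ± 0.28 in meristems over 11 libraries, of which the first passed. Its difference did not pass, at -0.03 ± 0.42 over 12 libraries and 0.04 ± 0.39 over 11 (SE; adjusted p of 0.999 and 0.983). AP2, which limits valve margin and replum growth, had effects of 1.15 ± 0.19 and 0.68 ± 0.18 over 11 libraries (SE). Its difference did not pass, at 0.05 ± 0.70 over 12 libraries and 0.47 ± 0.26 over 11 (SE; adjusted p of 1 and 0.304). IND, the valve margin factor, was not described as it had 3 counts in ful-7 and 1 in Col-0 meristems, a ratio of 2.31 (0.186 to 121). In pistils IND had 55.0, 72.9 and 61.7 CPM in ful-1, against 5.58, 5.14 and 6.09 CPM in Ler, without overlap. Its pistil effect passed edgeR's test, at 3.50 ± 0.30 over 12 libraries and 3.47 ± 0.20 over 11 (SE; adjusted p of 0.000153 and 5.29e-06). Exons overlapped with a gene on the opposite strand for 84.5% of ALC (AT5G67100), 56.7% of SHP2 (AT2G42835) and 17.5% of SHP1 (AT3G58790). Among genes named above, the same held for 14% of AT1G16960 (AT1G16970), 11% of SHN2 (AT5G01855) and 10.9% of AT3G49160 (AT3G49155). The sources used here do not give the strand setting of the counting, so counts of such pairs cannot be told apart. The summed ovule markers given above, like SHP1 and SPT, were higher in the other 2 ful-1 libraries than in the third ful PI column, and their part in these values was not tested.

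Of 12 described floral transition genes, 0 were positive and 1 a negative call over 12 libraries (8.33% called, against 0.789% of all described genes), and 1 and 2 over 11 (25%, against 12.9%). SPL15, a flowering factor of the SBP-box family, was the call over 12 libraries, with 3.19, 4.57 and 2.89 CPM in ful-1 pistils, against 10.4, 12.7 and 9.70 CPM in Ler pistils. Its meristem libraries overlapped at 35.1 ± 5.02 CPM in ful-7 and 32.1 ± 2.34 CPM in Col-0 meristems (SD, n = 3 each), and the difference was -1.74 ± 0.28 over 12 libraries and -1.68 ± 0.24 over 11 (SE; adjusted p of 0.0216 and 0.00175). All of the annotated exonic length of SPL15 overlaps AT3G57910 on the opposite strand. TFL1, which keeps the inflorescence meristem indeterminate, had 24.3, 22.6 and 25.4 CPM in ful-7 meristems, against 10.5, 10.3 and 11.1 CPM in Col-0 meristems. All ful-7 libraries were above all Col-0 libraries. In pistils it had 0.821, 1.41 and 6.60 CPM in ful-1 pistils, against 1.22, 0.856 and 1.07 CPM in Ler pistils, with the third ful PI column apart from its mates. The difference was -1.16 ± 0.28 over 11 libraries (SE; adjusted p of 0.0256) and 0.16 ± 0.79 over 12, where it did not pass. MYB17 was the positive call of the transition list over 11 libraries, at 0.64. SOC1 and SVP, MADS-box genes of flowering time, did not pass. The difference of SOC1 was -0.31 ± 0.43 over 12 libraries and -0.77 ± 0.28 over 11 (SE; adjusted p of 0.813 and 0.116). That of SVP was 0.68 ± 0.34 over 12 libraries and 0.75 ± 0.30 over 11 (SE; adjusted p of 0.451 and 0.139). AGL24 and LFY were below the floor in Ler pistils and not described. Of 14 described floral MADS-box genes, 0 were called over 12 libraries and 2 over 11, SHP1 and SEP4 (14.3%). SEP4, a floral organ identity gene, had 3.03, 4.04 and 0.721 CPM in ful-1 pistils, against 10.1, 10.9 and 9.05 CPM in Ler pistils, with a difference of -1.40 ± 0.53 over 12 libraries and -1.09 ± 0.22 over 11 (SE; adjusted p of 0.319 and 0.0104). Of 8 described meristem and organ boundary genes, 0 were called over 12 libraries and CLV1, the receptor kinase of meristem size, over 11 (12.5%). Its difference was -0.90 ± 0.38 over 12 libraries and -0.65 ± 0.15 over 11 (SE; adjusted p of 0.38 and 0.02).

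Of 11 described brassinosteroid and PRE genes, 0 were positive and 1 negative (PRE1) over 12 libraries, and 4 and 1 over 11. That is 9.09% and 45.5% called, against 0.789% and 12.9% of all described genes. The 4 were the biosynthesis genes DWF4, CPD, BR6OX2 and ROT3, whose differences of 0.95, 0.95, 0.92 and 0.80 lay close together. DWF4 averaged 18.3 CPM in the other 2 ful-1 libraries and 11.7 CPM in Ler pistils, and 16.5 ± 1.02 CPM in ful-7 and 21.0 ± 0.975 CPM in Col-0 meristems (SD, n = 3 each in meristems). The other lists had between 0 and 3 calls each over 11 libraries, where 12.9% of all described genes were called. The jasmonate list had 0 positive and 3 negative calls of 18 (LOX2, CORI3 and JAZ6, 16.7%) and growth factors 1 and 2 of 15 (GIF1 positive, GRF3 and GRF4 negative, 20%). Gibberellin had 1 and 1 of 17 (GASA6 positive, GA2OX1 negative, 11.8%) and abscisic acid 1 and 0 of 9 (HAB1, 11.1%). Flavonoid and anthocyanin genes had 0 and 1 of 10 (PAP1, a MYB activator, -2.58), the cuticle list 0 and 1 of 12 (SHN2, 8.33%) and auxin 1 and 0 of 16 (ARF18, 6.25%). None of 12 cytokinin, 17 cell division or 15 circadian clock genes was called over 12 or 11 libraries by edgeR. Their differences over 11 libraries still ran from -0.91 to 0.88, from -0.96 to 0.89 and from -1.53 to 2.88.

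**Figure D5:**
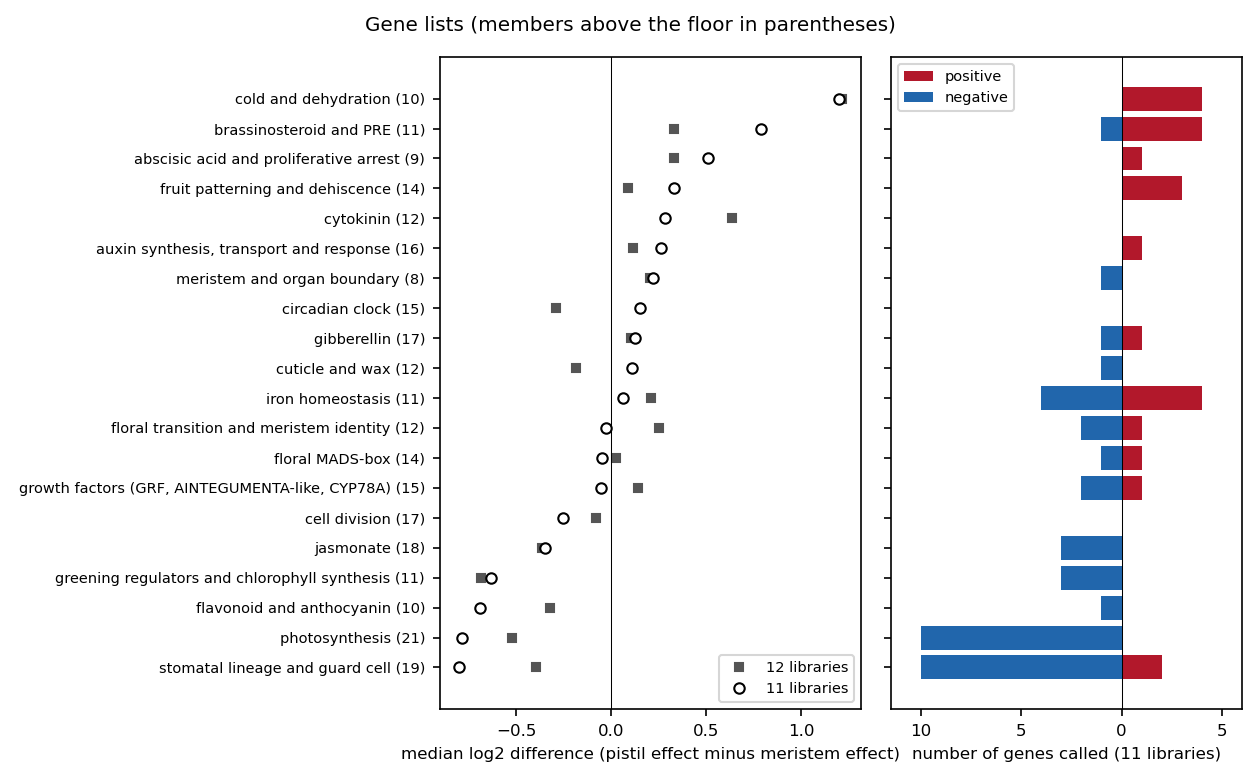
Median difference of each of 20 gene lists with 12 libraries (squares) and 11 libraries (open circles) on the left, and the number of genes called positive (red, to the right) or negative (blue, to the left) over 11 libraries on the right. The number of described genes of each list is in parentheses, cold and dehydration is at the top and the stomatal list at the bottom.

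Called genes lay on every nuclear chromosome. The most calls in 20 consecutive described genes were 2 over 12 libraries and 11 over 11 (AT1G17840 to AT1G18080). This stretch was picked as the highest and was not tested. The share called ran from 0.65% on chromosome 1 to 0.93% on chromosome 3 over 12 libraries, and from 11.7% on chromosome 5 to 13.8% on chromosome 3 over 11. Among the 25 described genes on each side of FUL, 0 of 50 were called over 12 libraries, and 1 positive and 6 negative over 11, where 12.9% of all described genes were called. The floor of 1 CPM sets the edge of the description. Among genes called over 12 libraries, those just inside it were AT2G30766, AT1G33930 and SHN2. They had 1.15 CPM, 1.16 CPM and 1.95 CPM in Ler pistils and 3.05, 1.49 and 1.21 CPM in Col-0 meristems. Some genes called over 11 libraries alone lay nearer the floor, such as TFL1 with 1.05 CPM in Ler pistils. Just outside, again among genes called over 12 libraries, were PIT1, MUTE and ARP1, with 0.990, 0.808 and 0.774 CPM in Col-0 meristems. Requiring 1 CPM in all 4 groups left 32 positive and 100 negative calls, since 13 negative ones lay below 1 CPM in a mutant.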

How the data were processed

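The deposited table holds whole-number counts per gene for 12 libraries. Per the submitters' processing notes, the authors used STAR 2.7.0b, featureCounts 1.6.0 and TAIR10. Their roles, the strand setting of the counting and the treatment of reads with several positions were not given in the sources used here. The library kit keeps the strand, per the labels' protocols. Columns carry a group name and no replicate number, so replicates are numbered by column order. The p-values measure only the spread between these samples.

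Genes were kept by filterByExpr (25154 genes with 12 libraries), scaled by TMM and fitted with edgeR's quasi-likelihood test (robust estimation off), with all 4 groups in 1 fit, and p-values were Benjamini-Hochberg adjusted over all tested genes at 0.05. SE is the absolute log2 value over the square root of the F statistic. CPM are TMM-scaled from the 12-library fit. The repeat left out the third ful PI column. A script was tested on simulated data. Symbols, products, overlaps and upstream sequence came from RefSeq TAIR10.1, matched by locus code. TAIR10 was the build named for the files, and no coordinates of the files were used. Tools were R 4.3.3, edgeR 4.0.16, limma 3.58.1, DESeq2 1.42.0, Python 3.11.15, numpy 2.4.6, pandas 2.3.3, scipy 1.17.1 and matplotlib 3.10.9.

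Named genes are FUL, the 8 largest differences in each direction called with 12 and 11 libraries, up to 6 called in both tissues in opposite and in the same directions, up to 3 per list called over 12 libraries (or 2 over 11), and 9 genes whatever their result (ALC, AP2, IND, LFY, SHP1, SHP2, AGL24, SOC1 and SVP). Other names were chosen after values were seen, among them further list members. The described genes and the 20 lists were chosen with earlier results of these data known. Depth was 13191949 to 83606724 counts per library, and exact intervals cover counting error only. Alternatives were other scaling, DESeq2, limma voom, robust estimation, other filters and floors, no organelle genes and each library left out. Of the lists of other cell types, 1 of 3 described ovule and seed coat markers (BEL1) was a positive call and 1 of 3 inflorescence meristem markers (TFL1) a negative one over 11 libraries. Of 3 described carpel and fruit markers 1 was positive (SHP1), and of 3 tapetum and pollen markers 0 were called.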

Additional observations from a re-analysis of the deposited data

Results flagged for a closer look

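The effect of ful differed between pistils and meristems, by edgeR's test of the difference itself over 12 libraries, for 32 described genes with a positive and 113 with a negative difference. Values are log2 differences, pistil effect minus meristem effect. Among the named genes, the positive ones were AT2G34655 (4.80), RD29A (4.55), AT2G16990 (3.64), AT3G49160 (3.52), FER1 (3.21), OFP6 (2.93), AT1G16960 (2.92), AT3G62820 (2.89) and COR15A (2.57). The negative ones of 3 or more were AT1G04660 (-8.56), SHN2 (-5.90), CORI3 (-5.69), AT1G11850 (-5.66), AT2G30766 (-5.60), PKS2 (-4.84), UGT74E2 (-4.80), AT1G33930 (-4.63), GA2OX1 (-3.67), POLAR (-3.40), LOX2 (-3.30) and PRE1 (-3.03). Smaller negative ones were AT3G56360 (-2.58), FAMA (-2.21), FRO3 (-2.01), AT1G15260 (-1.77), SPL15 (-1.74), DGAT3 (-1.63) and RBCS3B (-1.34). Tissue, ecotype and allele change together in this difference and cannot be told apart.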

How the results depend on the processing

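No paired analysis was possible because the columns carry no replicate numbers. Each of the 145 called genes kept its sign in all 19 alternative fits, and 93 to 145 of them were called again under other tools, scalings and filters, and 39 to 145 with a library left out. Positive calls (32) became 386 with DESeq2, 2052 with limma voom and sample weights, 19 without a count filter and 20 at a floor of 5 CPM. Negative calls (113) became 632, 2285 and 74 under the first 3 of these. Calls in pistils (548) became 1840 with DESeq2 and 5176 with voom, and in meristems (11) 139 and 1046. With a library left out, positive calls ran from 4 to 716, negative from 35 to 1653, pistil from 175 to 2710 and meristem from 5 to 107, each highest without the third ful PI column. Leaving out any library other than the third ful PI column gave at most 23 positive and 92 negative calls, at 1568 to 3540 genes with an unadjusted p under 0.05. Without that column, positive calls (716) became 1495 with DESeq2 and 1664 with voom, and negative ones (1653) 2658 with voom. These repeats were chosen after seeing the data. The FUL difference (1.75) passed with DESeq2 (1.77) and voom (1.93), and ran from 1.47 to 2.06 with a library left out. The TFL1 difference (0.16, not called) was -1.30 with voom and ran from -1.16 (without the third ful PI column) to 0.66 (without the first) with a library left out. Scaling moved the median difference by under 0.1 (log2). The cause was not tested. Over the 50 other named genes and all these settings, 109 calls were lost, 36 gained and 2 signs reversed. Depth limits AT1G33930 and SHN2, with 3 counts in ful-1 pistils.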

Other observations

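MRD1 (AT1G53480) shared its decrease between the tissues. Its log2 fold change over 12 libraries was -6.63 ± 0.32 in pistils and -8.16 ± 0.33 in meristems (SE), and its difference of 1.53 missed the threshold of edgeR (adjusted p of 0.131). The non-coding RNA AT1G07887, whose locus overlaps that of MRD1, had nearly the same effects, -6.70 and -8.24, and the counts of the pair cannot be told apart. Both were named after their values were seen. Counts for MRD1 were at 8 to 22 in every mutant library, so these folds rest on few counts.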
